A study of Homo sapiens with 4 samples.

Results

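The 39 genes described here are the integrin and laminin genes of the array, with a few genes that share their symbols. They were taken from the 22465 named genes of the deposited table by symbol: those that start with ITGA or ITGB, and those that start with LAMA, LAMB or LAMC followed by a digit, without antisense transcripts. Of the 39, 34 encode chains of the proteins themselves (18 integrin alpha, 8 integrin beta, 3 laminin alpha, 3 laminin beta and 2 laminin gamma chains). The other 5 are ITGB1BP1, ITGB1BP2, ITGB3BP, ITGBL1 and the pseudogene LAMB2P1. LAMA3, LAMA5 and LAMB3 had no transcript cluster with a single gene symbol and were not analysed here.

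Integrins are cell-surface receptors made of an alpha and a beta chain. They bind the extracellular matrix outside the cell and link it, through talin, vinculin and other adaptor proteins, to actin inside. Laminins are secreted trimers of an alpha, a beta and a gamma chain that form the sheet of the basement membrane, on which epithelia such as that of the lung rest. Receptors for laminin include ITGA3 or ITGA6 paired with ITGB1, and ITGA6 paired with ITGB4. ITGA2 with ITGB1 binds collagen, ITGA5 with ITGB1 binds fibronectin, and ITGAV pairs with several beta chains, among them ITGB5 in the vitronectin receptor.

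The arrays compare cells of A549, a long-established human lung carcinoma line of epithelial origin, that received a pLKO.1 lentivirus with a short hairpin against INSL4 (shINSL4, 2 arrays), with A549 cells that received the control lentivirus (shCtl, 2 arrays). INSL4 encodes a secreted peptide related to insulin and relaxin. The titles name 1 hairpin; the control is a scrambled hairpin in the series design but a vector control in the labels, and whether shCtl cells carry a hairpin too is not settled. The 2 arrays of a group come from independent cultures per the series design, with no word on separate transductions, and the p-values therefore cover only the spread between these 4 cultures. All values are log2 levels that the authors made with RMA, which corrects background, brings the arrays to a common distribution and summarises the probes of each transcript cluster. Array medians over the tested genes were 6.98 and 6.97 in shINSL4, against 6.94 and 6.91 in shCtl, and over all tested genes the median log2 fold change was 0.08. The level of INSL4 itself was 7.26 and 7.22 in shINSL4, against 9.03 and 8.92 in shCtl, a log2 fold change of -1.73 (SE 0.0684, adjusted p = 0.000142, limma with Benjamini-Hochberg adjustment).

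Of the 39 genes, 8 fell and 2 rose in shINSL4 at an adjusted p under 0.05 over all tested genes (limma with Benjamini-Hochberg adjustment); of all tested genes, 9.42% fell and 6.41% rose. The 8 that fell were the integrin genes ITGA2, ITGB4, ITGB5, ITGA6 and ITGA3 and the laminin genes LAMC1, LAMB1 and LAMB2. The 2 that rose were ITGA5 and ITGBL1. All 10 had a mean level above the median of tested genes, 6.95: of the 15 chains above it, 8 fell, 1 rose and 6 did not pass, while of the 19 chains below it, 0 fell and 0 rose and 5 had an unadjusted p under 0.05 in limma. Among all tested genes above that median, 15.8% fell and 8.13% rose. Among those below it, 3.01% fell, 4.69% rose and 26% had an unadjusted p under 0.05, so the dim chains do not stand apart from other dim genes in these counts. The median log2 fold change was 0.08 over the 34 chains and -0.25 over the 15 chains above the median level, against 0.04 over all tested genes above it. A change of at least 1.5-fold was found for 4 chains, all lower (ITGA2, ITGB4, LAMC1 and ITGB5), against 2.99% of all tested genes that fell by at least 1.5-fold. The 2 arrays of shINSL4 did not overlap the 2 of shCtl for 35 of the 39 genes, but neither did they for 68.9% of all tested genes, so separation alone says little here; shINSL4 lay higher for 22 (48.0% of all tested genes) and lower for 13 (20.8%). Without shINSL4 replicate 1 there were 5 lower genes among the 39 in place of 8; the number of higher genes was 1 without shINSL4 replicate 1, 0 without shINSL4 replicate 2, 4 without shCtl replicate 1 and 0 without shCtl replicate 2.

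**Figure D1:**
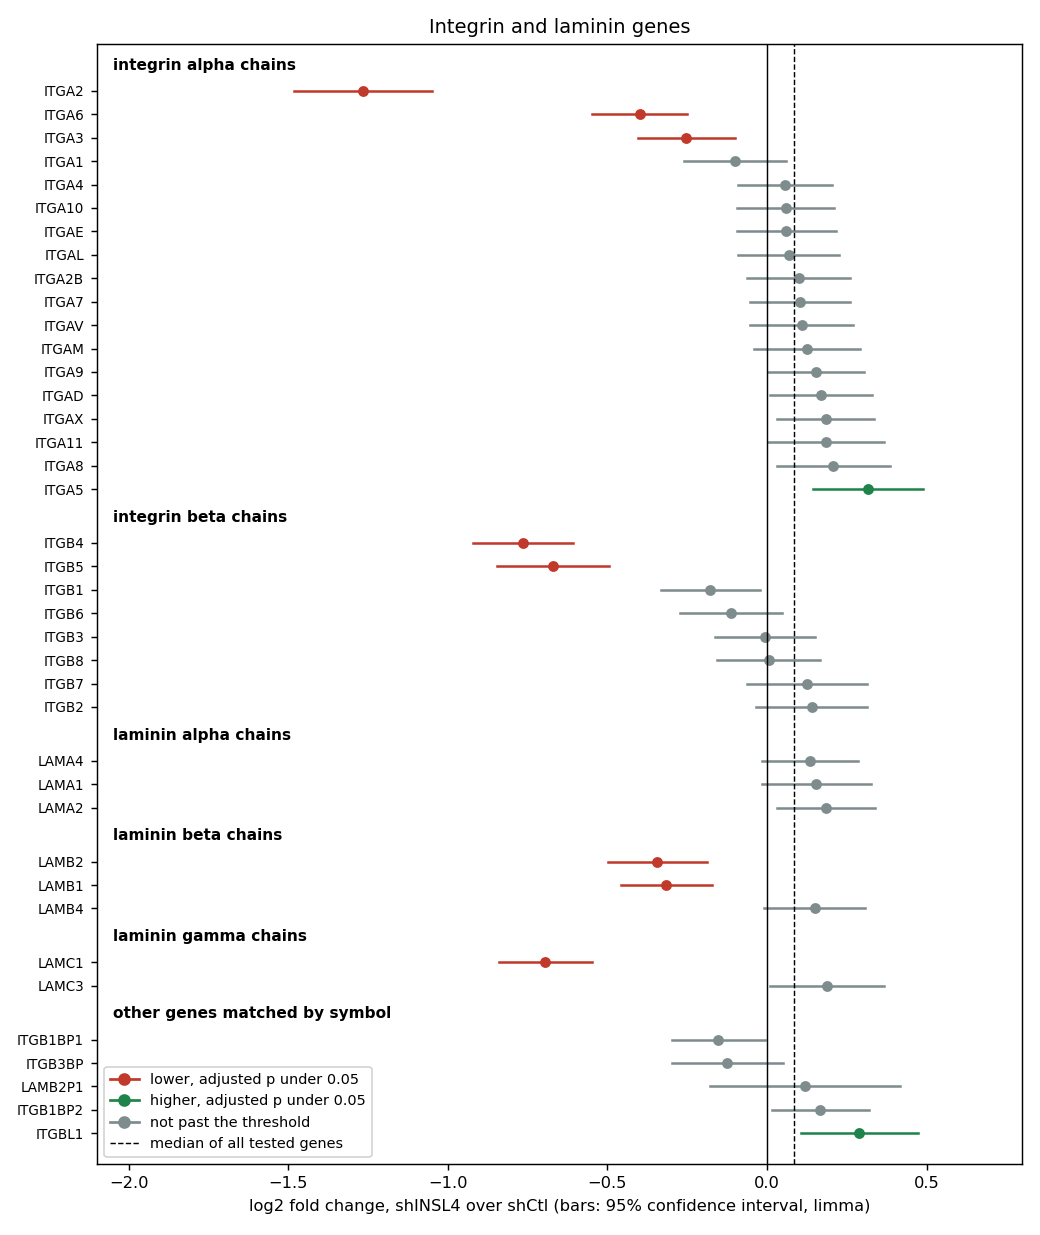
Log2 fold change of shINSL4 over shCtl for each of the 39 genes (x axis), grouped by kind of chain, with bars for the 95% confidence interval from limma; the solid line marks 0 and the dashed line the median of all tested genes, 0.08. The 8 red genes fell, with ITGA2 at -1.27 farthest left, the 2 green genes rose (neither passed after median centring), and the grey genes did not pass the threshold and lie mostly near the dashed line.

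The promoter windows of genes that moved are shown first, because ITGA2, LAMC1 and LAMB1 fell together while ITGA5 rose. Each is the RefSeq sequence from 250 bases before to 50 bases after the annotated start, on the gene's own strand, build GRCh38.p14: ITGA2 at chr5:52989102-52989401 (+ strand), LAMC1 at chr1:183023170-183023469 (+ strand), LAMB1 at chr7:108003112-108003411 (- strand) and ITGA5 at chr12:54419217-54419516 (- strand). Capitals mark the GC box GGGCGG and the AP-1 motif TGANTCA, each on either strand.
ITGA2: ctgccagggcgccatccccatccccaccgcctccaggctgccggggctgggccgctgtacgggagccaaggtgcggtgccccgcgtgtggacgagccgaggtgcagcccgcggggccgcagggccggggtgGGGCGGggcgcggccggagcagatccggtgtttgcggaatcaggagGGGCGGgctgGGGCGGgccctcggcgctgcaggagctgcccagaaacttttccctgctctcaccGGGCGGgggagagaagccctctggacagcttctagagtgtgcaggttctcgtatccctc
LAMC1: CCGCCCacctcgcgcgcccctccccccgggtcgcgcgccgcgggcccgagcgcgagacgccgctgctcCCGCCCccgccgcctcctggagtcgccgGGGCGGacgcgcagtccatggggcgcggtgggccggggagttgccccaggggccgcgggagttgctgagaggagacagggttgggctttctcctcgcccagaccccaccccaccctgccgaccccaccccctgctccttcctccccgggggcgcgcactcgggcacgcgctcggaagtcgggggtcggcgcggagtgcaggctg
LAMB1: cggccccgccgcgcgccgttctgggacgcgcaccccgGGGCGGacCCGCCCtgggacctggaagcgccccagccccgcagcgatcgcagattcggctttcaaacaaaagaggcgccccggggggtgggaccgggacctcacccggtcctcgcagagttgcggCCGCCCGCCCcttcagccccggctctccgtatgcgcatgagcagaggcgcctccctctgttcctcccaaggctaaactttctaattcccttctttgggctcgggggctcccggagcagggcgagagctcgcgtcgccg
ITGA5: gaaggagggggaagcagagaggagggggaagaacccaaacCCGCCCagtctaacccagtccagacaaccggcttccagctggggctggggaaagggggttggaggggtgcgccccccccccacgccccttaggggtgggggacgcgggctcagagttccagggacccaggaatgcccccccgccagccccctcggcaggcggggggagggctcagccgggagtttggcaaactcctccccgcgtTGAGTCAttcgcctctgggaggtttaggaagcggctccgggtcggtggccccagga
The table held windows for 8 of the 10 genes that passed, all but ITGA3 and ITGB4. The GC box, known as a binding motif of the Sp1 family, occurred in each of the 9 windows of the 6 lower genes with an entry. Some genes have several starts, and the 2 windows of ITGA6 overlap. Of the 25 chains that did not pass, 16 had a window. The GC box occurred in 4 of their 18 windows, and in 45% of all 35116 promoter windows. The ITGA2 and LAMB1 windows each held 4 GC boxes, of which 2 in LAMB1 overlap each other, LAMC1 held 3 and ITGA5 held 1. These windows also differed in base composition, with a median GC content of 71% in the lower genes, 54.3% in the chains that did not pass and 58.7% in all windows, and the part of this in the counts of a GC-only motif was not tested. The genes differed in level too. All 8 lower chains lay above the median level, while 19 of the 25 chains that did not pass lay below it. The part of level in the motif counts was not tested either. In ITGA5 the AP-1 motif began 6 bases before the start and, with a length of 7 bases, reached the start base. It was in 0 of 9 windows of the lower genes, 0 of 18 windows of the chains that did not pass and 7.71% of all windows. The window of ITGBL1, which also rose, held 0. At that share few matches are expected in so few windows, so these counts do not set ITGA5 apart from the lower genes. The cAMP response element TGACGTCA was searched because INSL4 has been studied downstream of CREB coactivators. It was in 0 windows of the lower genes, 0 of 18 windows of the chains that did not pass and 1.85% of all. The TATA motif TATAAA was in 1 window of ITGA6, 1 of 18 windows of the chains that did not pass and 11.5% of all. Different motifs did not overlap in the printed windows. A match describes these letters and shows no binding.

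ITGA2, the collagen-binding alpha chain, had the largest change of the 39 genes. Its log2 level was 7.48 and 7.57 in shINSL4, against 8.67 and 8.90 in shCtl. Both shINSL4 arrays lay more than 1 log2 unit below both shCtl arrays. ITGA2 fell by 1.27 on the log2 scale (SE 0.0907), which is 2.40-fold lower (adjusted p = 0.000424, limma with Benjamini-Hochberg adjustment). Its neighbour in the RefSeq gene table, ITGA1, is the other common collagen-binding alpha chain of epithelial and stromal cells. In order of gene starts, 1 protein-coding gene, PELO, comes between ITGA1 and ITGA2. Gene ends were not compared, so this order does not show that PELO separates them. ITGA1 read 6.37 and 6.43 in shINSL4, against 6.46 and 6.54 in shCtl, and did not pass (log2 fold change -0.10, 95% confidence interval -0.26 to 0.06). The other collagen-binding alpha chains, ITGA10 and ITGA11, lay below the median level and did not pass, at log2 fold changes of 0.06 and 0.19; ITGA11 passed without shCtl replicate 1 (adjusted p = 0.0387).

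Of the chains of laminin-binding integrins, ITGB4, ITGA6 and ITGA3 were lower. ITGB4, the beta chain that anchors hemidesmosomes to laminin, read 8.80 and 8.80 in shINSL4, against 9.61 and 9.51 in shCtl. The 2 shINSL4 cultures were nearly equal, and both lay well below the control cultures: ITGB4 fell by 0.77 (SE 0.0654), 1.70-fold lower (adjusted p = 0.000791, limma with Benjamini-Hochberg adjustment). ITGA6, the alpha chain that ITGB4 requires, read 8.84 and 8.87 in shINSL4, against 9.23 and 9.28 in shCtl, with no overlap. ITGA6 fell by 0.40 (SE 0.0623), 1.32-fold lower, at an adjusted p of 0.00761. ITGA3, which binds laminin as a partner of ITGB1, read 9.87 and 9.95 in shINSL4, against 10.17 and 10.16 in shCtl. The 2 groups did not overlap, and ITGA3 fell by 0.25 (SE 0.0639), 1.19-fold lower, at an adjusted p of 0.0417. That call did not hold without any 1 array: the adjusted p was 0.390 without shINSL4 replicate 1, 0.150 without shINSL4 replicate 2, 0.0561 without shCtl replicate 1 and 0.0805 without shCtl replicate 2, and it was 0.107 after quantile normalization. ITGA7, the laminin-binding alpha chain of muscle, lay below the median level and did not pass (log2 fold change 0.10).

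ITGB1, the beta chain shared by most matrix-binding integrins, read 11.80 and 11.78 in shINSL4, against 11.92 and 12.02 in shCtl. The shINSL4 arrays were lower without overlap, but ITGB1 did not pass (log2 fold change -0.18, 95% confidence interval -0.33 to -0.02, unadjusted p = 0.0318, adjusted p = 0.114, limma). It passed with trend and robust variance estimation (adjusted p = 0.0484) and when genes under the median level were left out (0.0432). ITGB1 was also the single member with several clusters, and its 2 dimmer ones gave log2 fold changes of -0.13 (SE 0.0842) and 0.14 (SE 0.0708), neither past the threshold, so they differed in sign.

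**Figure D2:**
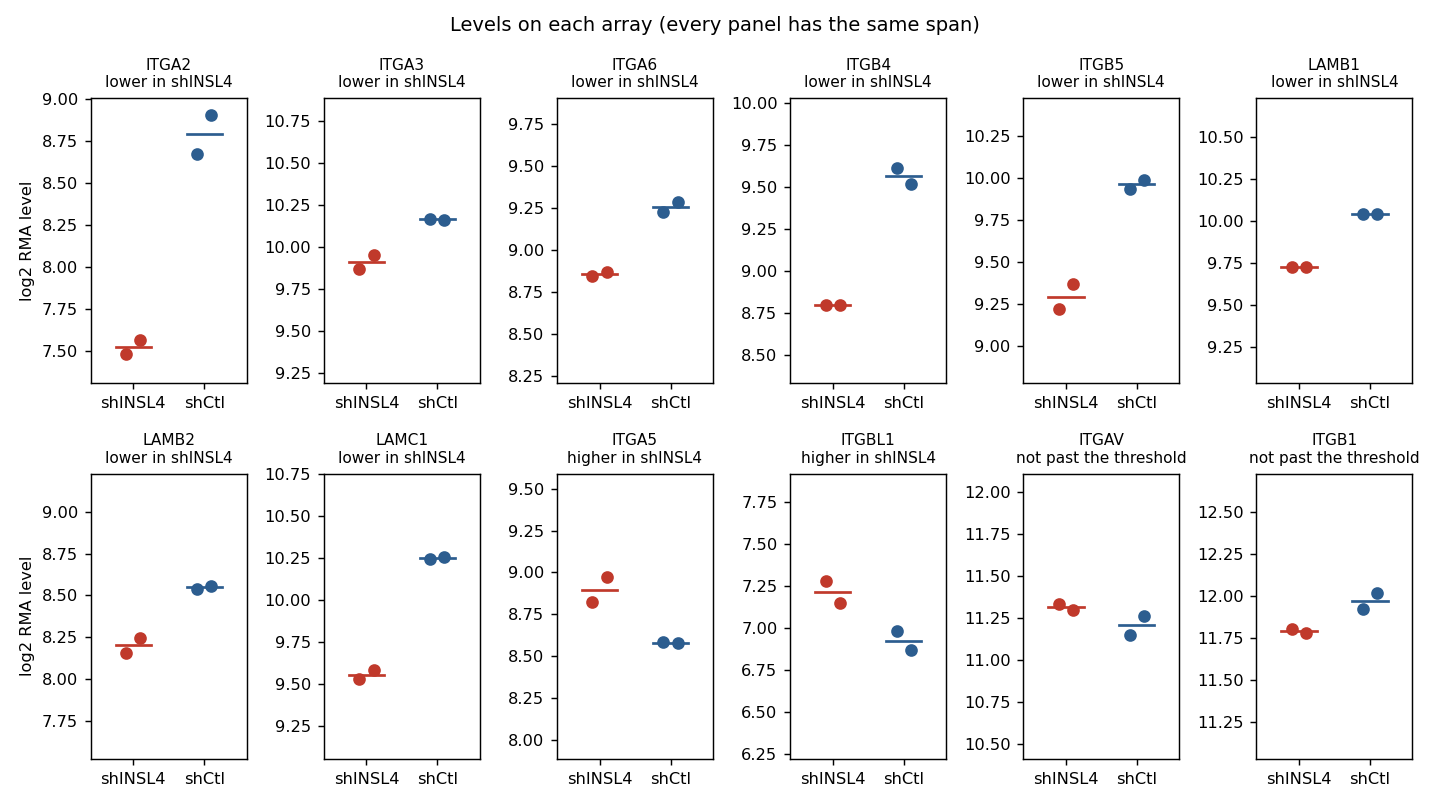
Log2 RMA level on each array (points) with the mean of each group (lines) for the 10 genes that passed and for ITGAV and ITGB1, with shINSL4 left of shCtl; each panel has its own y axis, all of the same span. The gap is widest for ITGA2, with 7.48 and 7.57 in shINSL4 against 8.67 and 8.90 in shCtl, and the points of ITGAV and ITGB1 lie close together.

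Of the receptors for fibronectin, vitronectin and other proteins with an RGD motif, 1 chain fell, 1 rose and the common alpha chain did not pass. ITGB5, which pairs with ITGAV, read 9.22 and 9.37 in shINSL4, against 9.93 and 9.99 in shCtl. Both shINSL4 cultures were below the control cultures, and ITGB5 fell by 0.67 (SE 0.0735), 1.59-fold lower (adjusted p = 0.00200, limma with Benjamini-Hochberg adjustment). ITGAV itself read 11.33 and 11.30 in shINSL4, against 11.15 and 11.26 in shCtl, and did not pass (log2 fold change 0.11, 95% confidence interval -0.05 to 0.27). The other beta partners of ITGAV, ITGB3, ITGB6 and ITGB8, lay below the median level, with log2 fold changes of -0.01, -0.11 and 0.01, and did not pass. ITGA5, the fibronectin-binding alpha chain, moved the other way, at 8.82 and 8.97 in shINSL4 against 8.58 and 8.58 in shCtl. Both shINSL4 arrays were above both shCtl arrays: ITGA5 rose by 0.32 (SE 0.0722), 1.24-fold higher, at an adjusted p of 0.0304. The adjusted p was 0.0656 after median centring of the arrays, 0.268 without shINSL4 replicate 2, 0.0521 without shCtl replicate 1 and 0.0811 without shCtl replicate 2.

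No leukocyte or platelet integrin passed over all tested genes. ITGAL, ITGAM, ITGAX and ITGAD are the alpha partners of ITGB2 on leukocytes, ITGAE and ITGA4 pair with ITGB7 on lymphocytes, and ITGA2B is the platelet alpha chain. Over these 9 genes the log2 fold change ran from 0.06 to 0.18, with ITGA4 and ITGAX at the ends. Those above the median level were ITGB2, at 7.41 and 7.32 in shINSL4 against 7.28 and 7.17 in shCtl, ITGA2B, at 7.34 and 7.25 in shINSL4 against 7.23 and 7.16 in shCtl, and ITGAX. For all 3 the shINSL4 arrays were slightly higher. ITGAX came nearest to the threshold, at 7.15 and 7.10 in shINSL4 against 6.97 and 6.91 in shCtl (adjusted p = 0.0998, limma with Benjamini-Hochberg adjustment). It passed when the lowest 40% of genes were left out (adjusted p = 0.0418). It also passed with the filter at the median level (0.0350), which keeps a gene whose mean exceeds 6.95 in either group. ITGAX was kept through its shINSL4 mean of 7.12, while its shCtl mean was 6.94. The 0.0350 is therefore not independent of the direction of its change. ITGA8 and ITGA9, alpha chains best known from mesenchymal and smooth muscle cells, were at 0.21 and 0.15 and did not pass. ITGA8 passed with the replicate number as a block (adjusted p = 0.0499) and without shCtl replicate 1 (0.0393). Over all tested genes, log2 fold changes had a median of 0.11 below the median level and 0.04 above it. A level near the median does not show expression on this array: MYOD1 and MYOG, regulators of muscle, read 7.15 to 7.39 and 7.07 to 7.29 over the 4 arrays of these lung carcinoma cells.

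**Figure D3:**
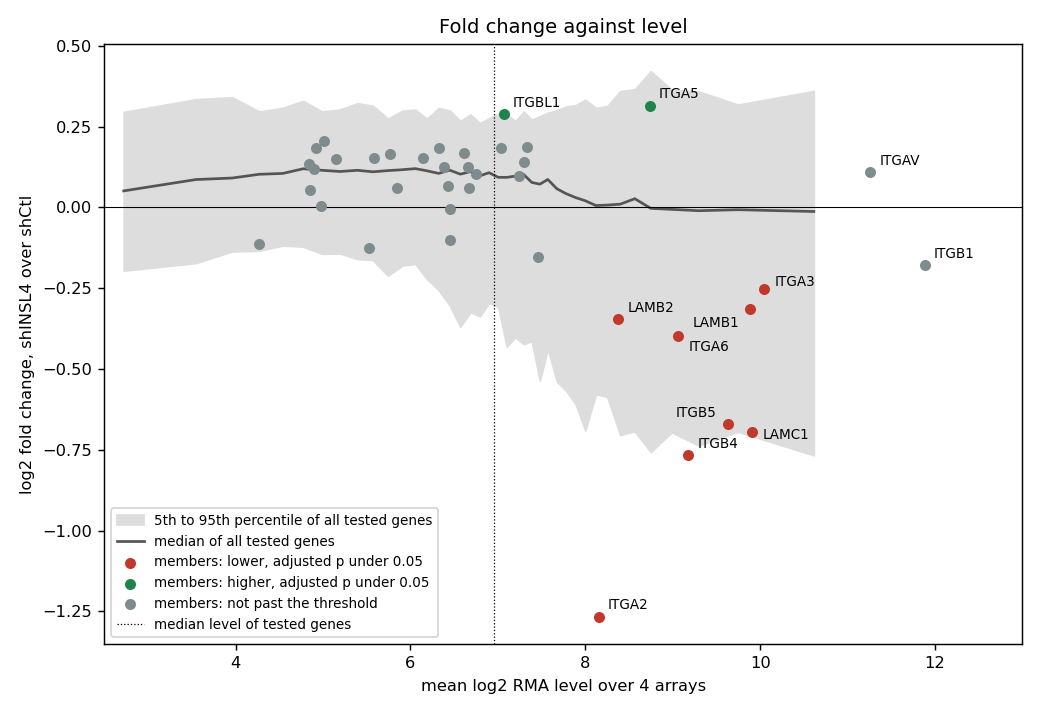
Log2 fold change of shINSL4 over shCtl (y axis) against the mean log2 RMA level over 4 arrays (x axis) for the 39 genes, with the median and the 5th to 95th percentiles of all tested genes in 40 bins of level as a line and a grey band, and the median level of 6.95 as a dotted line. The members that fell all lie right of the dotted line, ITGA2 lies far below the band, and the dim members cluster around the line of all genes.

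Among laminin chains, 1 gamma and 2 beta chains were lower and the 3 measured alpha chains did not pass. LAMC1, the gamma chain of most laminin trimers, read 9.53 and 9.58 in shINSL4, against 10.24 and 10.26 in shCtl. The cultures of a group were close together and the groups far apart, and LAMC1 fell by 0.69 (SE 0.0616), 1.62-fold lower (adjusted p = 0.000901, limma with Benjamini-Hochberg adjustment). LAMB1, the beta chain that assembles with it in embryonic and epithelial basement membranes, read 9.72 and 9.73 in shINSL4, against 10.04 and 10.04 in shCtl, and fell by 0.32 (SE 0.0599, adjusted p = 0.0161). LAMB2, the beta chain best known from kidney filters and nerve-muscle junctions, read 8.16 and 8.25 in shINSL4, against 8.54 and 8.56 in shCtl, and fell by 0.34 (SE 0.0650, adjusted p = 0.0157). LAMB1 was 1.24-fold and LAMB2 1.27-fold lower, both without overlap between groups. LAMB1 had an adjusted p of 0.119 without shINSL4 replicate 1 and 0.107 without shINSL4 replicate 2, and LAMB2 one of 0.146 without shINSL4 replicate 1, with log2 fold changes of -0.31, -0.32 and -0.30.

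The alpha chains LAMA1, LAMA2 and LAMA4, which give a laminin trimer its receptor-binding end, lay below the median level at 4.75 to 5.68 on all arrays, with log2 fold changes of 0.15, 0.18 and 0.13. All 3 were slightly higher on both shINSL4 arrays, and none passed. For LAMA1, LAMB1 and LAMC1, which can assemble as a trimer, the log2 fold changes were 0.15, -0.32 and -0.69. The 0.15 of LAMA1 is near the median of 0.11 over all tested genes below the median level. Whether these cells make this trimer was not tested, and LAMA3 and LAMA5 were not analysed. LAMB4 lies directly next to LAMB1 in the RefSeq gene table, with 0 protein-coding genes between them. LAMB4 read 5.25 and 5.19 in shINSL4, against 5.11 and 5.03 in shCtl, and did not pass (log2 fold change 0.15, adjusted p = 0.161, limma). LAMC3, a gamma chain of restricted tissues, read 7.45 and 7.41 in shINSL4, against 7.32 and 7.16 in shCtl, and did not pass either (adjusted p = 0.132, and 0.0414 without shCtl replicate 1).

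Of the 5 genes that share only the symbol, ITGBL1 rose and 4 did not pass. ITGBL1 encodes a secreted protein with repeats like those of integrin beta chains. It read 7.28 and 7.15 in shINSL4, against 6.98 and 6.87 in shCtl, and rose by 0.29 (SE 0.0763), 1.22-fold higher, with 0.0480 as its adjusted p in limma. This was the weakest call of the 10. The adjusted p was 0.0653 after quantile normalization, 0.0777 after median centring, 0.0912 after cyclic loess, 0.349 without shINSL4 replicate 1, 0.0604 without shINSL4 replicate 2 and 0.138 without shCtl replicate 2. ITGB1BP1, which binds the ITGB1 tail and limits integrin activation, read 7.38 and 7.39 in shINSL4, against 7.51 and 7.57 in shCtl, and did not pass (log2 fold change -0.15). ITGB1BP2 (melusin of striated muscle) was at 0.17 and ITGB3BP, a centromere protein, at -0.12. The pseudogene LAMB2P1, whose sequence resembles LAMB2 and whose signal may not be separable from it, was at 0.12 with overlapping groups.

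Genes that act with integrins inside the cell were then compared from lists written from textbook knowledge, with earlier results of these data known. Of 27 measured adhesion adaptors, 12 fell and 1 rose, with a median log2 fold change of -0.24. Of the 27, 24 lay above the median level, where 15.8% of all tested genes fell, 8.13% rose and the median was 0.04. VCL, vinculin, which strengthens the link of talin to actin, read 8.26 and 8.31 in shINSL4, against 9.91 and 9.93 in shCtl. It fell by 1.64 (SE 0.0620), 3.11-fold lower (adjusted p = 0.000142, limma with Benjamini-Hochberg adjustment), a larger change than in any of the 39 genes. TNS4, a tensin that binds integrin beta tails, fell by 1.35 (2.55-fold lower), the actin-binding adaptor gene LASP1 by 1.08 (2.11-fold lower) and ACTN1, an alpha-actinin that cross-links actin, by 0.94 (1.92-fold lower). For each of these 4 genes both shINSL4 arrays were below both shCtl arrays, and all kept an adjusted p under 0.05 in the 15 alternatives. The count of lower adaptors was 7 without shINSL4 replicate 1 and 7 without shINSL4 replicate 2. The single adaptor gene that rose was CRKL, named after its value was seen, at 0.23; its adjusted p was 0.0963 after median centring, 0.344 without shINSL4 replicate 1, 0.299 without shINSL4 replicate 2, 0.0527 without shCtl replicate 1 and 0.0811 without shCtl replicate 2.

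Among 10 integrin activators, the talin genes TLN2 and TLN1, whose products bind beta chain tails to activate the receptor, fell by 0.36 and 0.34, and the other 8 did not pass. Of these 10 genes, 8 lay above the median level, so 2 lower genes are near the 15.8% of all tested genes there. The adjusted p of TLN1 was 0.187 without shINSL4 replicate 1 and 0.0549 without shCtl replicate 2, and that of TLN2 was 0.0752 without shINSL4 replicate 2. Of 11 adhesion kinases and exchange factors, GIT1 and GIT2, scaffolds that recycle adhesions with PAK kinases, each fell by 0.70 (1.63-fold and 1.62-fold lower), a count of 2 that is also near that share. PAK2 rose by 0.24, but its adjusted p was 0.0962 after median centring and 0.296, 0.270, 0.0575 and 0.0563 without shINSL4 replicates 1 and 2 and shCtl replicates 1 and 2. Of 10 genes of integrin trafficking, the endocytic adaptor gene DAB2 fell by 0.34 and the recycling GTPase gene RAB4A rose by 0.31. With 9 of the 10 above the median level, these counts are near the 15.8% lower and 8.13% higher of all tested genes there. DAB2 had an adjusted p of 0.0527 without shINSL4 replicate 1 and 0.117 without shINSL4 replicate 2, and RAB4A one of 0.0621 after median centring, 0.0998 without shINSL4 replicate 1 and 0.130 without shINSL4 replicate 2.

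Of 2 measured hemidesmosome genes, PLEC, which links ITGB4 to keratin filaments, fell by 0.34 and DST rose by 0.27. Without shINSL4 replicates 1 and 2 the adjusted p was 0.108 and 0.0543 for PLEC and 0.254 and 0.174 for DST, and 0.0706 for DST after median centring. Of 5 tetraspanins, which cluster integrins in the membrane, CD9 fell by 0.30 and the other 4 did not pass. Both hemidesmosome genes and all 5 tetraspanins lay above the median level, where 15.8% of all tested genes fell and 8.13% rose. The 1 lower tetraspanin of 5 is near that share. The adjusted p of CD9 was 0.123 after quantile normalization, 0.115 after cyclic loess, 0.0771 and 0.239 without shINSL4 replicates 1 and 2, and 0.0727 without shCtl replicate 1.

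**Figure D4:**
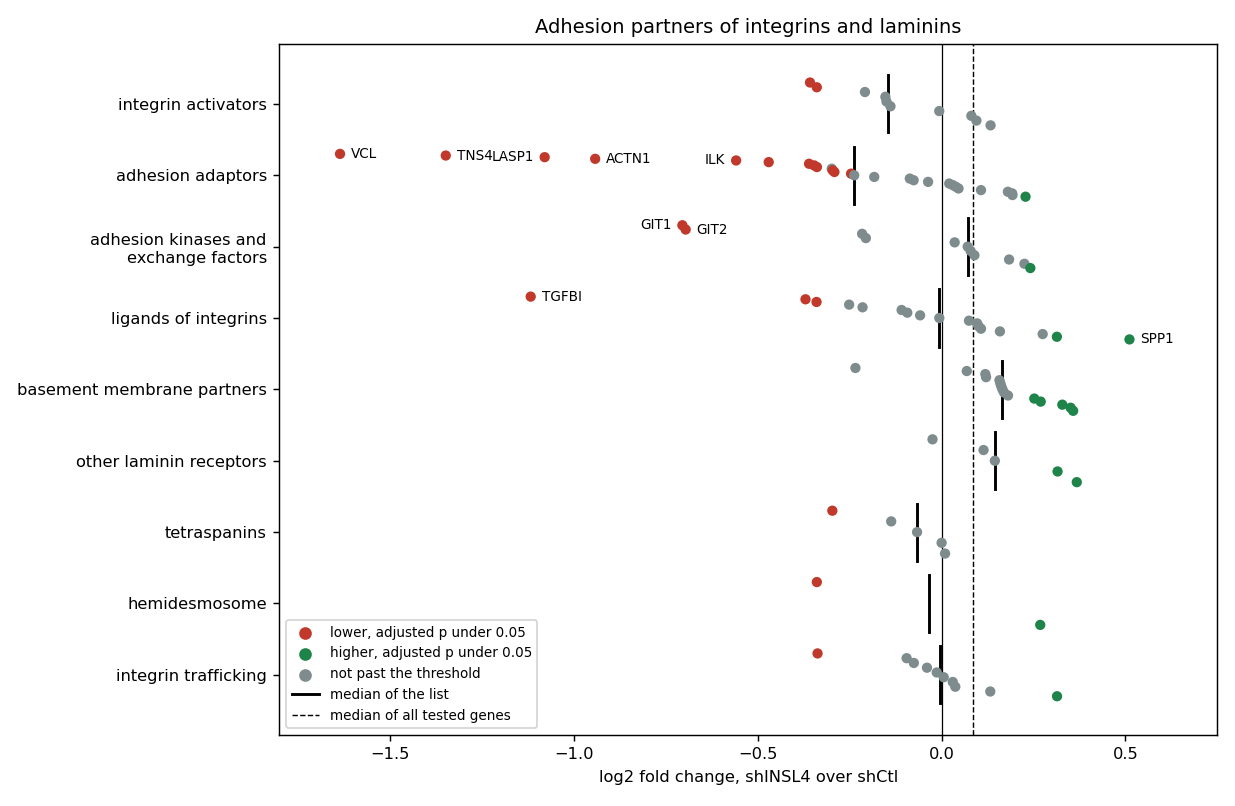
Log2 fold change of shINSL4 over shCtl (x axis) for each measured gene of 9 lists of integrin and laminin partners (rows); black bars mark each list's median, the solid line marks 0 and the dashed line marks the median of all tested genes, 0.08. Adhesion adaptors reach farthest left, with VCL at -1.64, while the basement membrane partners lie right of 0 except COL4A2.

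Outside the cell, laminin assembles with other proteins of the basement membrane. Of 15 basement membrane partners, 5 rose and 0 fell, with a median log2 fold change of 0.17. Of all tested genes, 6.41% rose, with 8.13% above the median level, where 7 of the 15 lie, and 4.69% below it. The median of all tested genes was 0.08. COL4A5, a chain of collagen IV, rose by 0.35, HSPG2, the proteoglycan perlecan, by 0.36, NID1, the nidogen that joins laminin to collagen IV, by 0.33, and NTN4, a netrin that binds laminin gamma chains, by 0.25. The remaining one was AGRN, agrin, at 0.27, which was named after its value was seen. In all 5 genes both shINSL4 arrays lay above both shCtl arrays, as they did for 48.0% of all tested genes. The count was 2 after median centring and after cyclic loess, and was 1 without shINSL4 replicate 1, 2 without shINSL4 replicate 2, 4 without shCtl replicate 1 and 2 without shCtl replicate 2. HSPG2 read 9.41 and 9.38 in shINSL4, against 9.11 and 8.97 in shCtl, and lost its call without shINSL4 replicate 1 alone (adjusted p = 0.0742). Without shINSL4 replicate 1 the adjusted p was also 0.177 for NID1, 0.395 for NTN4 and 0.191 for AGRN, and without shINSL4 replicate 2 it was 0.128 for COL4A5, 0.151 for NTN4 and 0.223 for AGRN. Without shCtl replicate 2 it was 0.0982 for NID1, 0.0717 for NTN4 and 0.105 for AGRN, and without shCtl replicate 1 it was 0.0629 for NTN4.

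Of 5 other laminin receptors, BCAM, the Lutheran receptor for a laminin alpha chain, rose by 0.37 and SDC4, the syndecan of focal adhesions, by 0.32, while the other 3 did not pass. Of these 5 genes, 4 lay above the median level, where 8.13% of all tested genes rose. The adjusted p of BCAM was 0.0752 without shINSL4 replicate 2 and 0.0508 without shCtl replicate 2, and that of SDC4 was 0.132 without shINSL4 replicate 1, 0.0964 without shINSL4 replicate 2 and 0.0535 without shCtl replicate 2. Of 17 measured ligands of integrins, 3 fell and 2 rose, counts near the 15.8% and 8.13% of all tested genes above the median level, where 9 of the 17 lie. TGFBI, a matrix protein that several integrins bind, read 9.67 and 9.77 in shINSL4, against 10.81 and 10.86 in shCtl, 2.17-fold lower. LTBP1, which holds latent TGF-beta in the matrix, fell by 0.37 and nephronectin, NPNT, by 0.34, with adjusted p-values of 0.140 and 0.153 without shINSL4 replicate 1. SPP1, osteopontin, rose by 0.51, at 11.36 and 11.35 in shINSL4 against 10.87 and 10.81 in shCtl. CCN1, named after its value was seen, rose by 0.31, with an adjusted p of 0.103 and 0.127 without shINSL4 replicates 1 and 2 and 0.0610 without shCtl replicate 2.

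Markers of cell type were read beside these values. Of 5 epithelial markers, 4 were lower in shINSL4: KRT18 by 0.54, CDH1 by 0.51, EPCAM by 0.36 and KRT8 by 0.28 on the log2 scale. The share of all tested genes that fell was 9.42%, and 15.8% above the median level, where 3 of the 5 lie. The summed linear level of the 5 markers, with KRT19 that did not pass, was 10480.3 and 11039.7 in shINSL4, against 14215.5 and 14463 in shCtl, with both shINSL4 arrays below both shCtl arrays. The part of this in the lower integrins and laminins was not tested. In bulk RNA, fewer cells of a kind and less RNA per cell cannot be told apart. The adjusted p of KRT8 was 0.351 without shINSL4 replicate 1, 0.0813 without shINSL4 replicate 2, 0.114 without shCtl replicate 2 and 0.0750 after quantile normalization, and that of EPCAM was 0.0631 without shINSL4 replicate 2 and 0.0535 without shCtl replicate 2. RMA lists no gene at 0. The defining leukocyte gene PTPRC read 3.72 to 3.88 and the endothelial gene PECAM1 4.42 to 4.72, both far below the median. No member of the leukocyte (5 measured), endothelial (5) or muscle (4) lists passed. The summed linear level was 355 and 348 in shINSL4 against 361 and 316 in shCtl for leukocyte markers, 268 and 256 against 246 and 224 for endothelial markers, and 426 and 420 against 414 and 384 for fibroblast markers. Of the 5 fibroblast markers, LUM fell by 0.78 and DCN rose by 0.30, both from levels under 5.2. The log2 fold change of LUM ran from -0.93 to -0.63 over its 13 alternatives. Of the 5 platelet markers GP1BA rose by 0.32, and of the 6 alveolar type II markers ABCA3 fell by 0.28. The other 5 alveolar type II markers did not pass and had log2 fold changes above 0, so that the median of the 6 was 0.12. DCN was at 0.07 as a mean over its clusters (adjusted p = 0.571), and its adjusted p was 0.0634 after quantile normalization, 0.0678 after cyclic loess and 0.0513 with an intensity trend. Without shINSL4 replicates 1 and 2 the adjusted p was 0.235 and 0.0722 for DCN, 0.204 and 0.0549 for GP1BA, and 0.184 and 0.165 for ABCA3, and without shCtl replicate 2 it was 0.0605 for DCN and 0.0609 for GP1BA.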

How the data were processed

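RNA of 4 A549 cultures was hybridised to Affymetrix arrays as labelled cDNA, per the labels' protocols. The deposited log2 levels are the authors' RMA output; the submitters' processing notes name Affymetrix Expression Console. Its version and the genome build: not given in the sources used here. Precision is limited by the number of arrays; a log2 fold change had a standard error of 0.0693 (median).

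Of 67528 transcript clusters, the platform annotation gives 1 gene symbol to 23781 and several to 1543, and 42204 are not listed and stay unnamed. The cluster with the highest mean stood for a gene, which left 22465 genes. All 39 members were matched in the GRCh38.p14 gene table.

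Tests used limma 3.58.1 in R 4.3.3 (group term, eBayes, two-sided), with p-values adjusted over all tested genes by Benjamini-Hochberg at 0.05, with no filter; the fit was tested on simulated data. Fold changes are shINSL4 over shCtl. Alternatives were 3 scalings, 2 variance models, 2 level filters and 2 treatments of several clusters. Further ones were the replicate number as a block, a threshold of 0.1 and each array left out. The filter at the median level dropped a gene only if its mean lay under that level in shINSL4 and also in shCtl.

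Members, lists and the naming rule were chosen with earlier results of these data known. The rule names INSL4, each member, and, for every list, at most 4 genes that passed, taken by smallest p. CRKL, AGRN, CCN1, COL4A2, MYOD1, MYOG, PTPRC, PECAM1 and KRT19 were named outside it, after their values were seen.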

Additional observations from a re-analysis of the deposited data

How the results depend on the processing

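The calls of ITGA2, ITGB4, ITGB5, ITGA6, LAMC1 and INSL4 held in all 15 alternatives, with log2 fold changes of -1.38 to -1.15, -0.81 to -0.69, -0.74 to -0.59, -0.45 to -0.33, -0.74 to -0.61 and -1.79 to -1.68. The number of members higher in shINSL4, 2, was 1 after quantile normalization, 0 after median centring and 1 after cyclic loess, and ran from 0 to 4 with single arrays left out; the number lower, 8, ran from 5 to 7. The number of lower adhesion adaptors, 12, ran from 7 to 12 with single arrays left out and from 11 to 15 under the other alternatives. Over all tested genes, 1440 were higher; this was 808 after median centring, 904 after cyclic loess, 2223 without the lowest 40% of genes, 2173 without genes under the median level, 2955 at an adjusted p under 0.1 and 808 to 2999 with single arrays left out. The number lower, 2117, was 1403 to 2430 with single arrays left out. The causes were not tested. Lower adhesion kinases and exchange factors, 2, were 4 with an intensity trend, median centring, cyclic loess, either level filter or the block. With 1 array left out, the lone array of its group is assumed to vary like the others. Replicate numbers are shared by the groups but mark no stated batch; with them as a replicate block 3 members were higher (ITGA8 added) and 8 lower, and 2996 genes over all were higher. Deviations of same-numbered arrays correlated across genes, which are not independent replicates, at r = 0.23. The median log2 fold change of all genes, 0.08, was 0.03 after quantile normalization, 0.04 after median centring and 0.01 after cyclic loess.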
